A study of Rattus norvegicus with 180 samples.

Results

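The optic nerve and the ischial nerve of the same 3 rats were compared over all miRNAs of a rat miRNA array. The optic nerve is a tract of the central nervous system, and its myelin is made by oligodendrocytes. The ischial nerve, the name given in the labels, is the organ listed as sciatic nerve in the study's organ list, and its myelin is made by Schwann cells. The members were the 6 arrays whose titles name these organs, of 180 arrays in the series, and the 717 miRNAs on each array. The series is an atlas of 55 organs of normal male Sprague-Dawley rats aged 10 weeks. Animals 4, 5 and 6 were perfused with saline before the organs were taken, so that all 6 arrays come from perfused, otherwise untreated animals. Each animal gave both nerves (n = 3 for each nerve), and values were paired by animal. RNA came from whole dissected nerves. In such bulk RNA fewer cells of a type and less of a miRNA per cell cannot be told apart.

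A miRNA is a short RNA that pairs with messenger RNAs, mainly through its seed, the bases 2 to 8, and lowers their translation or stability. miR-219 and miR-338 are known from oligodendrocytes, where they promote the passage from dividing precursors to cells that form myelin. Schwann cells depend on another set of regulators, and miR-138 and miR-204 are among the miRNAs described in peripheral nerve. Both nerves hold axons, but the cell bodies lie elsewhere, in the retina for the optic nerve and in the spinal cord and dorsal root ganglia for the ischial nerve. Several miRNAs of the HOX gene clusters follow the position of a tissue along the body axis.

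The sequences below are of miRNAs that carry the differences and of miR-338, a marker not called, and show which share a seed. They were taken from RefSeq (build GRCr8), which matched 175 of the 195 miRNAs tested, and arms were assigned by the later miRBase names. They are written 5′ to 3′ with the seed in capitals. The first 3 are miRNAs known from oligodendrocytes, although miR-338 was bright in both nerves. miR-219-5p and miR-219-2-3p are the opposite arms of 1 hairpin on the minus strand of chromosome 3, at chr3:33516561-33516581 and chr3:33516517-33516538, inside the gene Cercam. miR-338 lies inside Aatk on the minus strand, at chr10:105796345-105796367.
miR-219-5p: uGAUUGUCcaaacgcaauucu
miR-219-2-3p: aGAAUUGUggcuggacaucugu
miR-338: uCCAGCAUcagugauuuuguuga

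The next 4 show that miR-181a, miR-181b, miR-181c and miR-181d share the seed ACAUUCA. miR-181a and miR-181b differ at 3 of 23 positions, and miR-181b and miR-181d at 1 of 23.
miR-181a: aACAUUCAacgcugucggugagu
miR-181b: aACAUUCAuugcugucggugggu
miR-181c: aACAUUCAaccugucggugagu
miR-181d: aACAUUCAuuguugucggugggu

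The next 5 are the miRNAs of the HOX clusters. miR-10a-5p lies between Hoxb5 and Hoxb4, miR-10b inside Hoxd4, miR-196a between Hoxc10 and Hoxc9, miR-196b between Hoxa9 and Hoxa10, and miR-196c between Hoxb13 and Hoxb9. Each of the 3 pairs among miR-196a, miR-196b and miR-196c differs at 1 of 22 positions, outside the shared seed AGGUAGU. The RefSeq sequence of miR-10b begins at the third base of miR-10a-5p, so that bases 2 to 8 of these relatives are different words.
miR-10a-5p: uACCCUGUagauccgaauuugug
miR-10b: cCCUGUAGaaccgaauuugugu
miR-196a: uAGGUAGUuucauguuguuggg
miR-196b: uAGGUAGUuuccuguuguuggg
miR-196c: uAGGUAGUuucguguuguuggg

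The last 6 are miR-9 and miR-9*, the arms of a hairpin known from neural cells and found at 3 loci, miR-129-2*, miR-204, and a pair from 1 cluster on chromosome 10, miR-195 and miR-497, which share the seed AGCAGCA.
miR-9: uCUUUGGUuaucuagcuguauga
miR-9*: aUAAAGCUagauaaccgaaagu
miR-129-2*: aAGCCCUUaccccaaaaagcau
miR-204: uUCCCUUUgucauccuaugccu
miR-195: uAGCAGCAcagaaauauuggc
miR-497: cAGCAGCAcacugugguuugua

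Values are scaled signals. The background-corrected spot intensities of the scanner were averaged per miRNA, and every array was brought to a common 75th percentile, taken over the 37 miRNAs that all 180 arrays detected. Detection on an array means that more than 50% of a miRNA's usable spots lay well above background. In means, differences and tests a signal below 10.8 counts as 10.8, called the floor here, while single values are given as measured and can lie below 0. The optic nerve arrays of animals 4, 5 and 6 detected 169, 164 and 139 miRNAs, and the ischial nerve arrays 191, 213 and 199. Before scaling their 75th percentiles were 1782, 2178 and 1107 in optic nerve and 4182, 4717 and 2992 in ischial nerve, so that all 3 optic nerve arrays were dimmer. No spot was saturated (0), and the number of arrays limits the precision.

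The optic nerve array of animal 4 stood apart from the other optic nerve arrays. Across the 195 miRNAs tested its log2 values had a Pearson correlation of 0.919 and 0.921 with those of animals 5 and 6, which had 0.990 with each other. The 3 ischial nerve arrays had 0.992 to 0.993. On floored values, 10 miRNAs on this array were at least 4 times as high as on both other optic nerve arrays. On any of the other 5 arrays 0 miRNAs were so within their nerve. The single values that follow are as measured. miR-1, which is abundant in striated muscle, read 1989 on it against 4.98 and 4.53 on the arrays of animals 5 and 6, and 19.8, 41.3 and 37.7 in ischial nerve. miR-133b, another miRNA of muscle, read 2798 against 10.9 and 13.1, and 47.2, 57.2 and 56.9 in ischial nerve. miR-206, miR-133a, miR-133a*, miR-31, miR-10b, miR-199a-3p, miR-199a-5p and miR-214 made up the rest of the 10. Of the 12 miRNAs listed for skeletal muscle, 7 were detected on no nerve array and 3 were tested with 0 called, beside 58.5% over all miRNAs. Summed over the 12, the signal was 5055, 34.1 and 40.8 in optic nerve and 89.7, 117 and 123 in ischial nerve. The part of this muscle signal in the results was not tested, and results that turn on this array are given with and without animal 4.

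**Figure D1:**
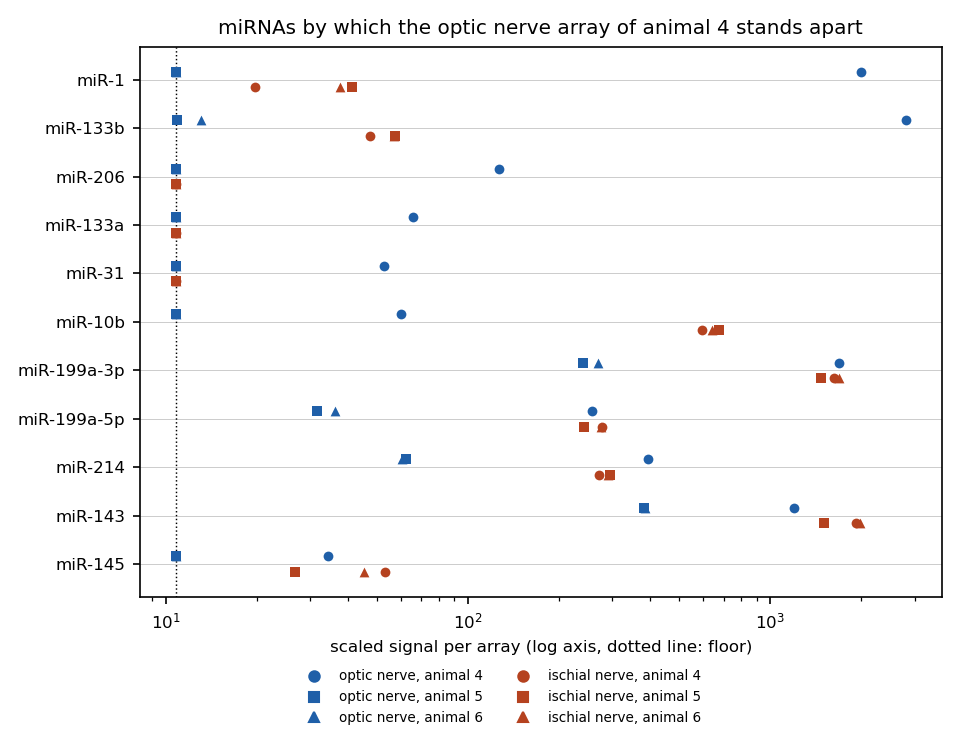
Scaled signal (log axis, floored) of 11 miRNAs of muscle, connective tissue and HOX clusters, chosen after their values were seen, on each of the 6 arrays, with colour for the nerve and symbol for the animal. The optic nerve array of animal 4 reads 1989 for miR-1 and 2798 for miR-133b, far to the right of the other 5 arrays. For miR-199a-3p it lies just above the ischial nerve arrays.

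Of the 717 miRNAs, at least 1 of the 6 arrays detected 237, and 480 were detected on none. The 195 that were detected on all 3 arrays of at least 1 nerve were tested with limma, with animal as a block. Some of them entered through 1 nerve only. Where the other nerve lay below the floor on all 3 arrays its tested values were constant, so that the p-value carries the spread of the brighter nerve alone. After Benjamini-Hochberg adjustment over the 195, 114 miRNAs (58.5%) differed, of which 74 (37.9%) were higher in optic nerve and 40 (20.5%) higher in ischial nerve. All of these 114 had the same sign in 3 of 3 animals, animal 5 included, whose nerves were hybridised on the same slide. The values of the nerves did not overlap for 88 miRNAs (45.1%) higher in optic nerve and 45 (23.1%) higher in ischial nerve, together 133 (68.2%). The fold was 2 or more for 37 of the 74 and for 27 of the 40. An exact permutation test of 3 against 3 arrays, without the pairing, cannot go below p = 0.1. With the pairing kept that limit is higher, so that the calls rest on limma's fit over all miRNAs.

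How the calls divided between the nerves depended on the scaling. The median log2 difference over the 195 miRNAs, optic minus ischial nerve, was 0.29 in the main scaling. It was 0.00 with the percentile taken over the miRNAs that all 6 nerve arrays detected, 0.01 with the percentile over all miRNAs, -0.02 after quantile normalization and 0.03 in the normalized table of the authors. With the median over the 37 common miRNAs, a scaling added after seeing the data, it was -0.70. The counts higher in optic and in ischial nerve were then 36 and 53, 45 and 59, 43 and 58, 43 and 55, and 25 and 123. Called in the same direction under the main scaling and these 5 others were 23 miRNAs higher in optic nerve and 39 higher in ischial nerve. All 5 had a lower median difference than the main scaling. Holding under all 6 was therefore a stricter condition for calls of optic nerve than for calls of ischial nerve. Calls given below are those of the main scaling, and the text says where any did not hold under all 6. The other 51 calls of optic nerve were mostly small, and 37 of the 74 changed sign under at least 1 of the 5 scalings. Normexp background correction, whose offset is larger after scaling on the dimmer arrays, is not among these scalings. With it the median difference was 0.79 and the counts were 139 and 20. The differences of the dim miRNAs miR-299, miR-138, miR-183, miR-96, miR-196c, miR-145, miR-205, miR-363 and miR-411, described below as higher in ischial nerve, were then between 0.08 and 0.60, on the side of optic nerve.

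**Figure D2:**
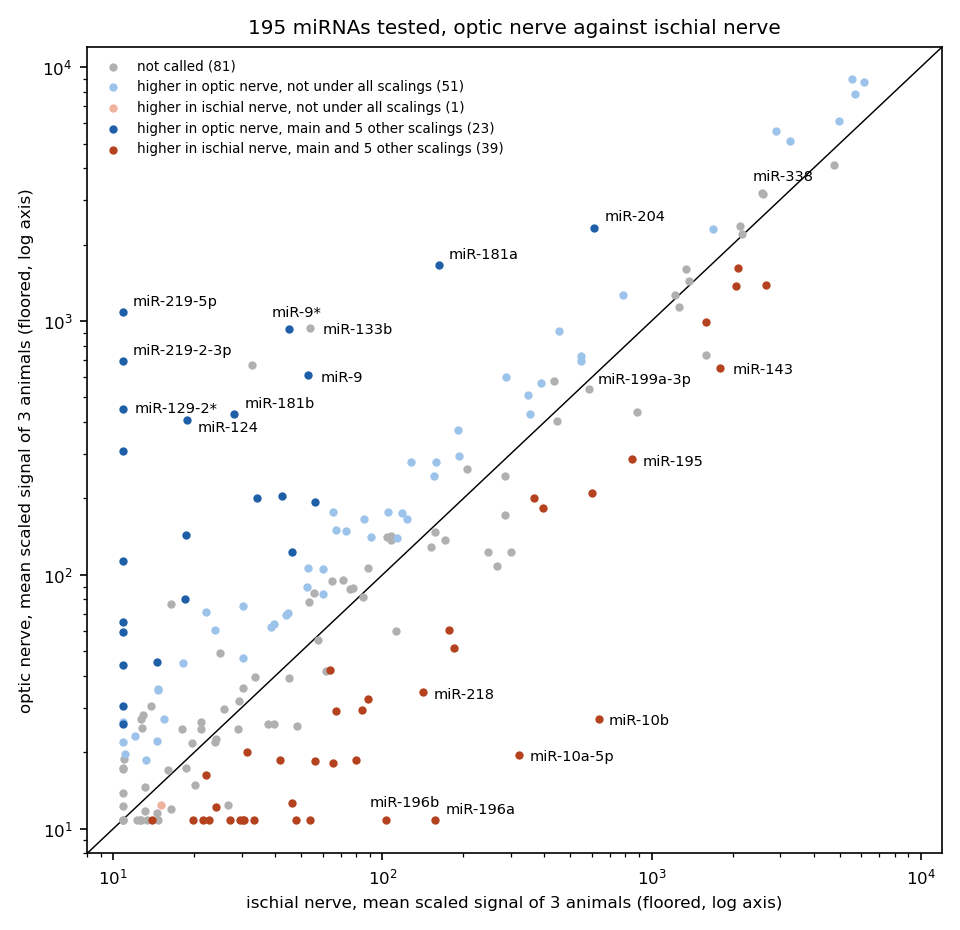
Mean scaled signal of 3 animals in optic nerve (vertical, log axis) against ischial nerve (horizontal, log axis) for the 195 miRNAs tested, with values under the floor at 10.8. Dark blue marks the 23 miRNAs higher in optic nerve and dark red the 39 higher in ischial nerve under the main scaling and the 5 others, pale points are called under the main scaling only or under some of the others, and grey points are not called. miR-219-5p and miR-219-2-3p lie at the upper left, miR-10b, miR-10a-5p and miR-196a at the lower right, and miR-338 close to the diagonal.

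The miRNAs listed for oligodendrocytes divided, with the miR-219 pair higher in optic nerve and miR-338 not called. miR-219-5p had signals of 875, 1088 and 1290 in the optic nerves of animals 4, 5 and 6, and 2.98, 3.78 and 3.68 in the ischial nerves, where it was detected on 1 of 3 arrays. miR-219-2-3p had 427, 791 and 860 in optic nerve and -0.445, -0.175 and -0.258 in ischial nerve, where it was detected on 0 of 3 arrays. Both arms were thus high on every optic nerve array and below the floor on every ischial nerve array. The log2 difference against the floor was 6.63 (SE 0.14, limma's adjusted p = 6.26e-04) for miR-219-5p and 5.93 (SE 0.26, adjusted p = 0.00241) for miR-219-2-3p. Measured against the lowest signals well above background on the ischial nerve arrays, miR-219-2-3p was at least 145-fold higher in optic nerve. The corresponding arm of the other miR-219 hairpin, miR-219-1-3p, was detected on 0 of the 6 arrays.

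miR-338 was among the brighter miRNAs in both nerves. It had 2492, 3817 and 3194 in optic nerve and 2527, 2652 and 2625 in ischial nerve, and the value of optic nerve in animal 4 lay below all 3 ischial nerve values. The log2 difference was 0.26 (SE 0.14, 95% interval -0.17 to 0.69, limma's adjusted p = 0.188). It was 0.40 (adjusted p = 0.0619) without animal 4, 0.13 without animal 5 and 0.25 without animal 6, and passed in none of these 3 fits. It was -0.03 under both other percentile scalings, 0.09 and 0.03 after quantile normalization and in the authors' table, and -0.77 (adjusted p = 0.0124) with the median over the common miRNAs. Of the markers given for this comparison, miR-219-2-3p therefore separated the nerves and miR-338 did not pass the test. miR-3065-5p, which is encoded antisense to miR-338, was detected on 0 of the 6 arrays.

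miR-138, which is known both from oligodendrocyte differentiation and from the myelination programme of Schwann cells, was higher in ischial nerve. Its signals were 15.4, 18.4 and 21.7 in optic nerve and 70.1, 45.8 and 52.8 in ischial nerve, a log2 difference of -1.60 (SE 0.24, limma's adjusted p = 0.0140). It was detected on 1 of 3 optic nerve arrays. Of the 10 miRNAs listed for oligodendrocytes, 4 were tested, of which 2 were higher in optic nerve, 1 in ischial nerve and 1 did not pass, beside 37.9% and 20.5% called over all miRNAs. These 4 log2 differences ran from -1.60 to 6.63, with a median of 3.10 that lies far from each member, beside 0.29 over all 195 miRNAs.

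The 14 miRNAs listed for Schwann cells and nerve repair had calls in both nerves. Of the 10 tested, 4 were higher in optic nerve, 3 in ischial nerve and 3 did not pass, beside 37.9% and 20.5% called over all miRNAs, with a median log2 difference of 0.34. Under all 6 scalings 1 of the 4 and all 3 of the ischial nerve held. miR-204, which is abundant in cells of neural crest and of the eye and lies inside Trpm3, was the member highest in optic nerve relative to ischial nerve. It had 1667, 2536 and 2797 in optic nerve and 600, 631 and 601 in ischial nerve, a log2 difference of 1.90 (SE 0.19, limma's adjusted p = 0.00685). Every optic nerve value was more than 2 times every ischial nerve value. miR-210, which responds to low oxygen, was also called in optic nerve (log2 difference 1.68), but not under all scalings, with a range of 0.65 to 1.68 over them. The other calls of optic nerve, miR-221 (0.81) and miR-140 (0.43), changed sign over the scalings, with lowest values of -0.23 and -0.61, and miR-140 did not pass without animal 4 (adjusted p = 0.0933).

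The members higher in ischial nerve were miR-195, miR-183 and miR-34a. miR-195, which represses cell cycle genes, had 418, 212 and 225 in optic nerve and 888, 783 and 877 in ischial nerve (log2 difference -1.64, SE 0.23, limma's adjusted p = 0.0124). miR-497, from the same cluster, had 296, 166 and 167 against 656, 537 and 609 (log2 difference -1.57, SE 0.18, adjusted p = 0.00974). The cluster's products were thus lower on all 3 optic nerve arrays, and highest among these in animal 4. Of the other 3 tested with this seed, miR-16 was higher in ischial nerve (log2 difference -0.59, SE 0.08, adjusted p = 0.0121) and miR-322 was not called (-0.087). miR-15b was called in optic nerve (0.29, adjusted p = 0.0391), but in ischial nerve with the common median (-0.74). miR-34a, whose gene p53 activates, had a log2 difference of -0.88 (SE 0.12, adjusted p = 0.0121).

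Most of the miRNAs tested from the list for neurons were higher in optic nerve. Of the 20 listed, 11 were tested, and 9 of these were higher in optic nerve, all 9 under the main scaling and the 5 others, 0 higher in ischial nerve and 2 not called, beside 37.9% called in optic nerve over all miRNAs and 23 of 195 under all scalings. The list's median log2 difference was 3.33. The members not called were miR-137, below the floor on every array although detected in ischial nerve, and miR-382, with a log2 difference of 0.21. The list leaves out miR-218 and miR-138, whose highest means of the 55 organs were in cerebral cortex (1063) and hippocampus (251). Both were higher in ischial nerve, with log2 differences of -2.10 and -1.60.

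miR-124, the most abundant miRNA of neurons, had 269, 473 and 482 in optic nerve and 21.7, 17.3 and 17.4 in ischial nerve, a log2 difference of 4.40 (SE 0.31, limma's adjusted p = 0.00365). miR-9* had 862, 978 and 941 against 39.3, 47.8 and 47.6 (log2 difference 4.37, SE 0.07, adjusted p = 4.7e-04). miR-9, which acts in neural progenitors and neurons, had 611, 526 and 695 against 52.4, 46.8 and 59.4 (log2 difference 3.53, SE 0.06, adjusted p = 4.7e-04). Both arms of the miR-9 hairpin were therefore present on the ischial nerve arrays, at a lower level.

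The products of the miR-129 hairpins were near background in ischial nerve. miR-129-2* had 329, 551 and 472 in optic nerve and 4.45, 5.37 and 5.27 in ischial nerve, and miR-129-1* had 231, 340 and 351 against 4.06, 4.40 and 4.91. These sequences are identical over the 19 bases of miR-129-1*, so that the probes may not tell them apart. The log2 differences were 5.35 (SE 0.18) and 4.80 (SE 0.17), each with an adjusted p of 0.00162 in limma's fit. miR-129, the other arm, had 71.8, 140 and 130 against 0.480, 1.12 and 1.00, and was at least 24.0-fold higher. miR-384-5p had a log2 difference of 2.94, miR-128 of 2.25 and miR-132, an miRNA induced by neuronal activity, of 1.46. For miR-132, which was detected on 0 of 3 ischial nerve arrays, the bound was at least 6.35-fold higher. These bounds are taken against the lowest signals well above background, 3.78 to 5.27 on the ischial nerve arrays, and so exceed the fold against the floor of 10.8, which for miR-132 was 2.76.

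**Figure D3:**
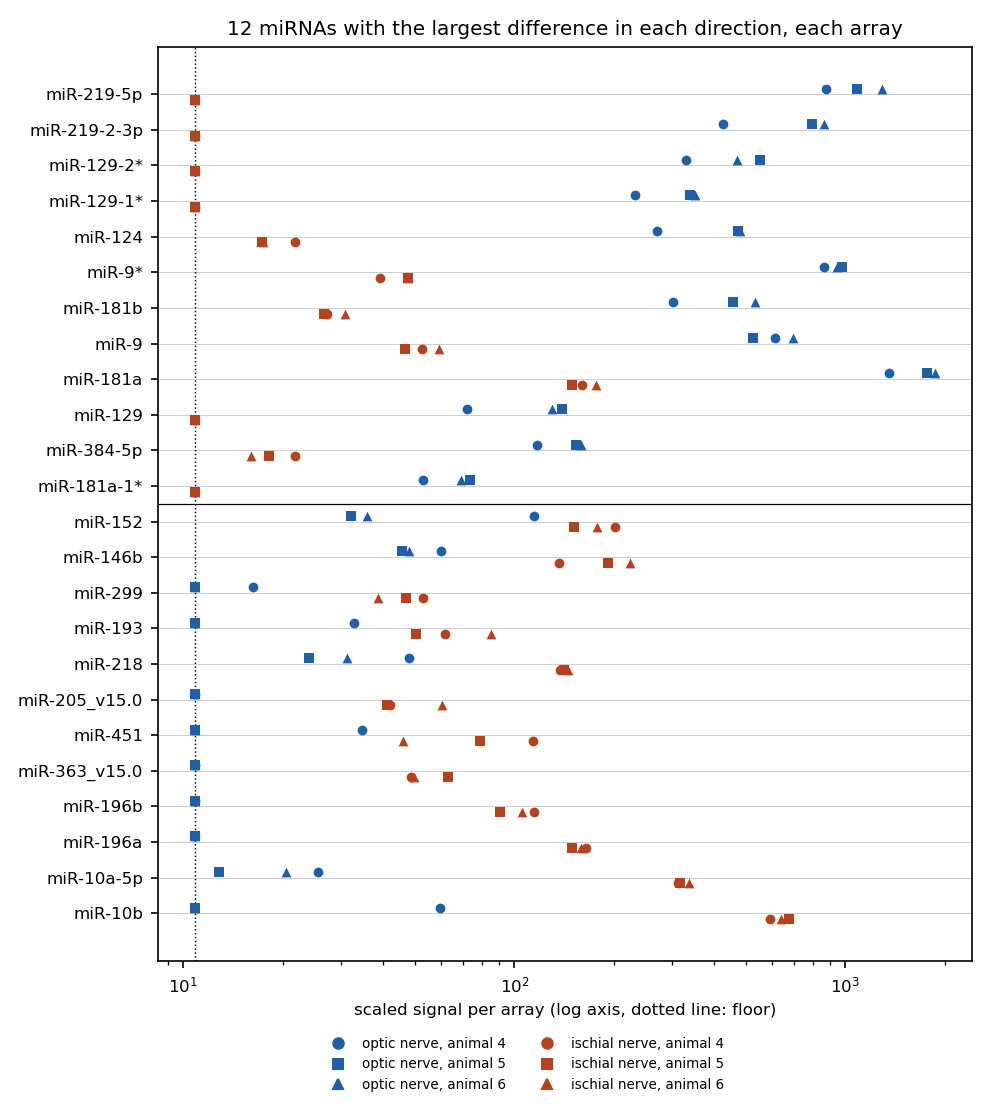
Scaled signal per array (log axis, values under the floor drawn at the dotted line) of the 12 miRNAs with the largest log2 difference in each direction among those past the threshold without overlap of the nerves, with colour for the nerve and symbol for the animal. The top 12 are higher in optic nerve and the bottom 12 in ischial nerve, and for miR-10b, miR-451, miR-193, miR-299 and miR-152 the optic nerve array of animal 4 lies nearest to the ischial nerve arrays.

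The miR-181 family was higher in optic nerve. All 5 members tested were called there, 4 of them under the main scaling and the 5 others, beside 37.9% called in optic nerve over all miRNAs and 23 of 195 under all scalings. Their median log2 difference was 2.57. miR-181a, known from lymphocytes and from brain, had 1352, 1771 and 1867 in optic nerve and 160, 149 and 176 in ischial nerve (log2 difference 3.35, SE 0.13, limma's adjusted p = 0.00184). miR-181b, from the same cluster, had 301, 456 and 535 against 27.2, 26.5 and 30.7 (log2 difference 3.90, SE 0.18, adjusted p = 0.00242). miR-181a-1*, the opposite arm of that cluster's miR-181a, had 53.1, 73.5 and 68.9 against 4.32, 4.55 and 5.11 (log2 difference 2.57, SE 0.13, adjusted p = 0.00242). On each of these the optic nerve array of animal 4 gave the lowest value in optic nerve. miR-181c and miR-181d, from a second cluster, had smaller log2 differences of 1.34 and 1.62, of which the one of miR-181c did not pass under all scalings. Since the mature sequences differ at few positions, some of this signal may be shared between probes.

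Of the 23 miRNAs called in optic nerve under all scalings, 7 belonged to none of the groups described above. They were miR-328a (log2 difference 2.50), miR-135a (2.40), miR-326 (2.12), miR-325-3p (2.00), miR-342-3p (1.76), miR-361 (1.41) and miR-340-5p (1.25). miR-135a had 63.6, 39.1 and 75.6 in optic nerve and 0.987, 0.932 and 1.86 in ischial nerve, where it was detected on 0 of 3 arrays, and was at least 12.6-fold higher. miR-326, which is known from neural stem cells and glioma, had 67.7, 77.2 and 97.2 against 18.6, 15.6 and 21.3.

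The HOX cluster miRNAs were higher in ischial nerve, 5 of the 5 tested of 11 listed, and all 5 under the main scaling and the 5 others, beside 20.5% called in ischial nerve over all miRNAs and 39 of 195 under all scalings. Their median log2 difference was -3.86. miR-10b had 59.8, 0.639 and 1.38 in optic nerve and 594, 674 and 641 in ischial nerve. It was detected on 1 of 3 optic nerve arrays, that of animal 4, which also carried the muscle signal. Its log2 difference was -5.05 (SE 0.69, limma's adjusted p = 0.0122) with 3 animals and -5.92 (adjusted p = 0.00248) without animal 4. miR-10a-5p, also detected on 1 of 3 optic nerve arrays, had 25.5, 12.8 and 20.4 against 312, 317 and 337 (log2 difference -4.10, SE 0.24, adjusted p = 0.00268).

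The relatives with the seed AGGUAGU were below detection in optic nerve, so that their tests take the spread between animals from ischial nerve alone. miR-196a had 1.86, 1.46 and 3.31 in optic nerve and 164, 149 and 159 in ischial nerve, and was at least 13.2-fold higher in ischial nerve (adjusted p = 4.7e-04). miR-196b had 1.49, 0.778 and 2.11 against 115, 90.7 and 105, at least 8.65-fold higher (adjusted p = 0.00156). For both, the array of animal 4 read like those of animals 5 and 6. miR-196c had 1.75, 1.37 and 2.69 against 22.5, 14.2 and 22.5, at least 1.62-fold higher (adjusted p = 0.0341), and did not pass without animal 4 (adjusted p = 0.101). With 1 base between any pair of the 3 sequences, a part of the miR-196c signal may come from its relatives.

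miR-363_v15.0, a probe set of an earlier miRBase version, had 4.95, 0.267 and -0.404 in optic nerve and 48.6, 62.9 and 49.7 in ischial nerve, at least 4.48-fold higher (adjusted p = 0.00242), and the probe set of the later version, miR-363, gave at least 2.26-fold. miR-205_v15.0, from a miRNA of stratified epithelium, had 4.35, -1.08 and -1.39 against 42.0, 41.2 and 60.3, at least 3.95-fold higher (adjusted p = 0.00373). Of the 13 epithelial miRNAs listed, 8 were detected on no nerve array, and the defining miR-200b and miR-429 were detected on 0 of the 6. Of the 3 tested the probe sets of miR-205 were higher in ischial nerve, beside 20.5% over all miRNAs, and 1 did not pass. Summed over the 13, the signal was 124, 21.1 and 9.09 in the optic nerves of animals 4, 5 and 6. In ischial nerve the sum was 95.5, 82.9 and 134. miR-218, which is abundant in motor neurons, had 48.2, 23.9 and 31.2 against 137, 141 and 146 (log2 difference -2.10, SE 0.25, limma's adjusted p = 0.0104).

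miR-96 and miR-183, from 1 cluster known from sensory cells, were detected on 0 of 3 optic nerve arrays and 3 of 3 ischial nerve arrays. miR-96 had 4.74, 1.22 and 2.44 in optic nerve and 32.7, 34.1 and 33.2 in ischial nerve, at least 2.80-fold higher (limma's adjusted p = 0.00184), and miR-183 was at least 2.47-fold higher. Of the 3 miRNAs tested from the 10 listed for retina and eye, these were the 2 higher in ischial nerve, and miR-204 was the other, beside 20.5% and 37.9% called over all miRNAs. miR-184, which marks cornea and lens, was detected on 0 of the 6 arrays.

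Blood and immune miRNAs were in part higher in ischial nerve. Of 7 tested of 12 listed, 3 were higher in ischial nerve, 0 in optic nerve and 4 did not pass, beside 20.5% and 37.9% over all miRNAs, with a median log2 difference of -1.12. miR-451, the miRNA of red blood cells, had 34.6, 1.69 and 0.683 in optic nerve and 114, 78.6 and 46.0 in ischial nerve (log2 difference -2.22, SE 0.27, limma's adjusted p = 0.0104). It was detected on 1 of 3 optic nerve arrays, and its partner miR-144 on 0 of the 6 arrays. miR-146b and miR-146a, which damp inflammatory signalling and share a seed, had log2 differences of -1.82 (SE 0.26, adjusted p = 0.0130) and -1.12 (SE 0.27, adjusted p = 0.0408). miR-223, of myeloid cells, had 174, 77.5 and 116 against 203, 300 and 403, a log2 difference of -1.32 with 3 animals (adjusted p = 0.0806) and -1.87 without animal 4 (adjusted p = 0.00515), and was called in ischial nerve under each of the 5 other scalings. miR-150 was not called in the main scaling (log2 difference -0.23), but was called in ischial nerve under each of the 5 others. Without animal 4 it had -0.40 (limma's adjusted p = 0.0418). All animals had been perfused, and how much blood was left in either nerve was not tested.

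The calls of several connective tissue miRNAs depended on animal 4. miR-199a-3p, of fibroblasts, had 1689, 241 and 269 in optic nerve and 1623, 1474 and 1682 in ischial nerve. miR-199a-5p had 258, 31.7 and 36.4 against 278, 242 and 276, and miR-214, from the same cluster, 395, 62.3 and 60.3 against 271, 295 and 291. In animals 5 and 6 each was lower in optic nerve than in any ischial nerve. In animal 4 the nerves were close for miR-199a-3p and miR-199a-5p, and miR-214 was higher in optic nerve than in any ischial nerve. With 3 animals none of them (0 of 3) passed, with log2 differences of -1.73 (adjusted p = 0.118), -1.99 (0.101) and -1.32 (0.204) in limma's fit. Without animal 4 they were -2.63 (0.00311), -2.93 (0.00257) and -2.26 (0.00351).

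The muscle miRNAs miR-1 and miR-133b changed sign when animal 4 was left out, and were then called in ischial nerve. miR-1 had a log2 difference of 0.97 (limma's adjusted p = 0.715) with 3 animals and -1.86 (adjusted p = 0.00476) without animal 4. miR-133b had 0.46 (adjusted p = 0.858) and -2.26 (adjusted p = 0.00631). The smooth muscle miRNAs miR-143 and miR-145 were higher in ischial nerve. miR-143 had 1194, 382 and 385 against 1920, 1500 and 1981 (log2 difference -1.67, SE 0.41, adjusted p = 0.0414), and -2.17 without animal 4. miR-145 had 34.4, 6.82 and 8.70 against 53.0, 26.8 and 45.4 (log2 difference -1.33, SE 0.34, adjusted p = 0.0454), with overlap of the nerves. The endothelial pair miR-126 and miR-126* did not pass (log2 differences -1.12 and -1.08, limma's adjusted p = 0.0523 for each). Without animal 4 they had -1.49 (adjusted p = 0.00901) and -1.43 (adjusted p = 0.0123), and both were called in ischial nerve under each of the 5 other scalings.

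Of the 12 mesenchymal miRNAs listed, 9 were tested, 2 were called in optic nerve, 3 in ischial nerve and 4 did not pass, beside 37.9% and 20.5% over all miRNAs, with a median log2 difference of -0.98. The 2, miR-455* (0.64) and miR-100 (0.55), did not hold under all scalings and were called in ischial nerve with the common median (-0.40 and -0.48). The 3, which held, were miR-152 (-1.79, adjusted p = 0.0327), miR-22 (-0.98) and miR-27a (-0.69). Of 7 adipose miRNAs tested, 2 were called in optic nerve, miR-103 (0.35) and miR-107 (0.41), which likewise turned to -0.68 and -0.63 with the common median. Another 2, miR-335 and miR-193, were higher in ischial nerve, beside the same shares over all miRNAs. miR-193, abundant in brown fat, had 32.8, 2.44 and 1.19 against 61.8, 50.3 and 85.0 (log2 difference -2.03, SE 0.48, limma's adjusted p = 0.0391).

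Over all 195 miRNAs, 72 of the 74 calls of optic nerve and 37 of the 40 of ischial nerve were also made without animal 4. The counts were 25 and 12 without animal 5, and 32 and 15 without animal 6. All 23 and 37 of the 39 calls that held under all scalings were also made without animal 4. Without animal 4, 9 further miRNAs were called in optic nerve and 16 in ischial nerve.

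**Figure D4:**
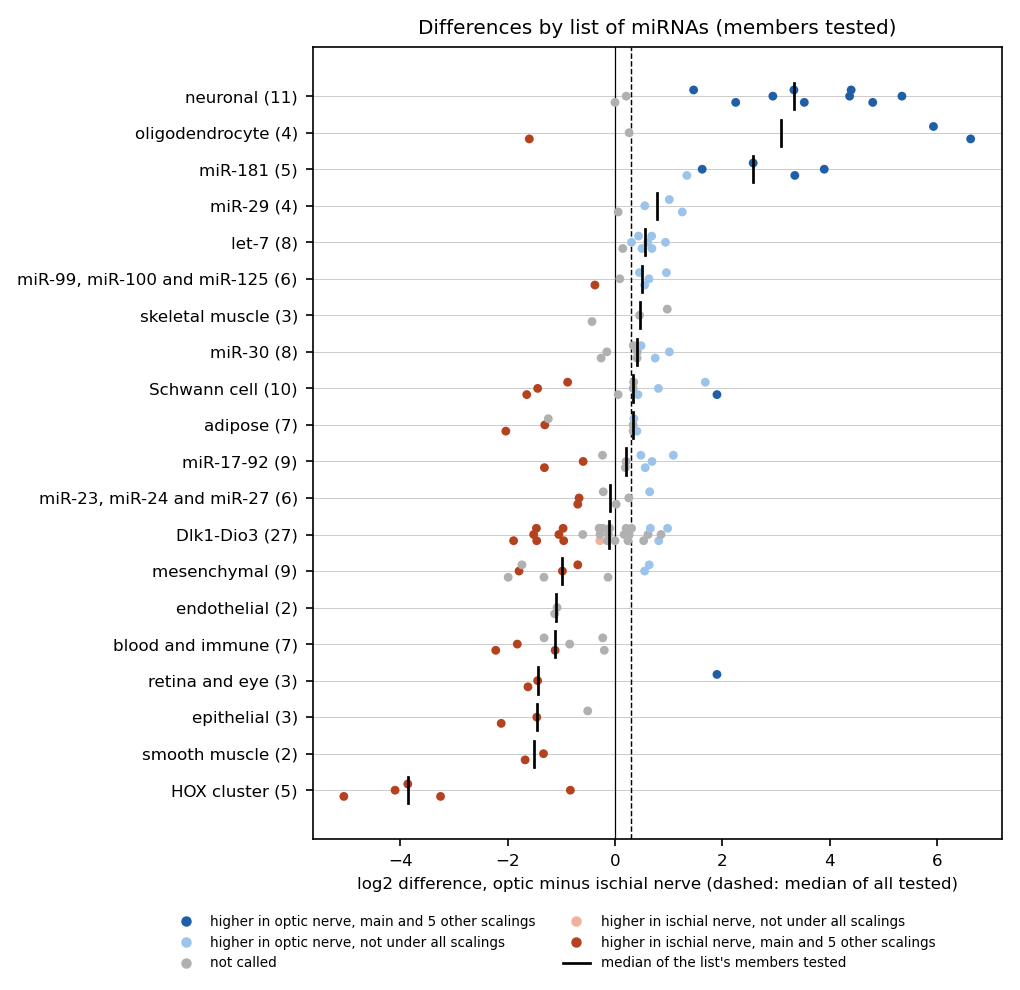
Log2 difference, optic minus ischial nerve, of the tested members of each list (number tested in brackets), with a bar at the list's median and a dashed line at the median of all 195 miRNAs, 0.29. The lists of neurons and the miR-181 family have medians of 3.33 and 2.57 and the HOX cluster list has -3.86, the 4 oligodendrocyte members are spread from -1.60 to 6.63, and pale points are calls that did not hold under all scalings.

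The miRNAs of the Dlk1-Dio3 region, a large imprinted cluster on chromosome 6, were called in both directions. Of 84 listed, 27 were tested, and 3 were called in optic nerve, 8 in ischial nerve and 16 did not pass, beside 37.9% and 20.5% over all miRNAs, with a median log2 difference of -0.12. Under all 6 scalings 0 of the 3 and 7 of the 8 held. miR-136 (0.66) and miR-434 (0.81) had -0.38 and -0.22 with the common median, and miR-136* (-0.28) also did not pass without animal 4 (adjusted p = 0.0687). miR-299 had 16.2, 2.57 and 2.47 in optic nerve and 53.0, 47.0 and 38.8 in ischial nerve (log2 difference -1.89, SE 0.11, limma's adjusted p = 0.00268). miR-411* (-1.52), miR-379 (-1.46) and miR-411 (-1.46) lie near it and were higher in ischial nerve too. miR-323, from the same region, had 15.0, 25.5 and 25.5 in optic nerve and 4.04, 5.32 and 4.96 in ischial nerve, a log2 difference of 0.98 (SE 0.21, adjusted p = 0.0321) that did not pass under all scalings.

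In several abundant families the calls of optic nerve did not hold under all scalings, while those of ischial nerve did. Over all miRNAs, 23 of the 74 calls of optic nerve (37.9% of those tested) and 39 of the 40 of ischial nerve (20.5%) held. The other scalings all had a lower median difference than the main one, which favours calls of ischial nerve. Of the 8 let-7 miRNAs tested, which share the seed GAGGUAG, 7 were called in optic nerve with log2 differences of up to 0.94 for let-7b, and 0 held under all scalings. let-7b had 5073, 5742 and 5943 in optic nerve and 2912, 2916 and 2881 in ischial nerve, and its difference was -0.09 with the median over the common miRNAs. The families of miR-29 (3 of 4 called in optic nerve), of miR-30 (3 of 8, of which miR-30c-2* did not pass without animal 4) and of miR-99, miR-100 and miR-125 (4 of 6) had 0 calls of optic nerve under all scalings, beside 37.9% called in optic nerve over all miRNAs in the main scaling. Of the miR-17-92 family and its relatives, 4 of 9 were called in optic nerve, again 0 under all scalings. Of the 6 tested of miR-23, miR-24 and miR-27, 1 was called in optic nerve, miR-23b, which did not hold. Called in ischial nerve under all scalings were miR-99a (-0.37), miR-20b-5p (-0.59), miR-363 (-1.31), miR-27a (-0.69) and miR-24-2* (-0.67), of which miR-20b-5p did not pass without animal 4 (adjusted p = 0.0518).

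The levels of the named miRNAs were then set beside those in the 8 other nervous system organs of perfused animals (4 brain regions, medulla oblongata and 3 spinal cord levels), as a description with no test. For the medulla oblongata and the 3 spinal cord levels, the array titled as animal 5 has a source label naming animal 6, and the title was followed, so that whether 3 separate animals stand behind these 4 organs is not settled. The ranks depended on the scaling, so those of the authors' normalized table, added after seeing the data, are given beside them. Over the 55 organs the optic nerve had the fourth highest mean of miR-219-2-3p, 693 ± 233 (SD, n = 3). The cervical spinal cord had 1165 ± 104, the medulla oblongata 778 ± 61.9 and the cerebral cortex 164 ± 38.3 (SD, n = 3). The spread of optic nerve overlapped those of the medulla oblongata, of the lumbar spinal cord, 614 ± 462, and of the hippocampus, 413 ± 222. In the authors' table the optic nerve had rank 1, with 1494 ± 643 on that table's scale, above the means of the 8 other regions at 179 to 1199. For miR-338 the optic and ischial nerves ranked 5 and 6 of 55, with 3168 ± 663 and 2601 ± 65.8, below the 3 spinal cord levels at 4335 to 4470. In the authors' table they ranked 1 and 2, with 6793 ± 2415 and 6361 ± 465, above the 8 other regions at 1244 to 5102.

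miR-9, miR-124 and miR-129-2* had lower means in optic nerve than in each of the 8 brain and cord regions, in the authors' table too for miR-9 and miR-124, whereas miR-129-2* was there lower than 5 of the 8. miR-124 had 408 ± 121 in optic nerve, 1621 ± 992 in lumbar spinal cord, the lowest of the 8, and 11001 ± 1964 in cerebellum (SD, n = 3). The optic nerve thus lay between the ischial nerve, at 18.8 ± 2.56, and the regions that hold neuronal cell bodies. miR-181a and miR-204 had another order. miR-181a was 1663 ± 274 in optic nerve, rank 3 of 55, above the means of the 8 other regions, 828 to 1432, although within the spread of several of them. miR-204 was 2333 ± 592 in optic nerve, rank 2 of 55, behind the eyeball at 13959 ± 1071 and above the cerebellum at 1565 ± 281. Both were above the 8 other regions in the authors' table as well, at rank 2 of 55.

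Of the HOX cluster miRNAs, miR-10a-5p and miR-10b were high in the 3 spinal cord levels and ischial nerve and low in brain. Within the cord, miR-196a and miR-196b were above the floor only at the pectoral and lumbar levels. miR-10b was 1845 to 1955 in the 3 spinal cord levels, 636 ± 40.4 in ischial nerve, 40.4 ± 4.99 in medulla oblongata and at or near the floor in the 4 brain regions. miR-196a was 120 ± 15.5 in lumbar spinal cord and 38.5 ± 38.9 in the pectoral spinal cord, where it was detected on 2 of 3 arrays. It was detected on 0 of 3 arrays of the cervical cord, the medulla oblongata and each brain region, as in optic nerve, and the ischial nerve had the highest mean of the 10 organs, 157 ± 7.6. In the authors' table miR-196a was 384 ± 13.8 in ischial nerve against at most 144 in the 8 other regions, and miR-10b 1557 ± 172 against at most 2094. miR-218 and miR-138 differed from this pattern. miR-218 was lowest in optic nerve (34.4 ± 12.5) and next lowest in ischial nerve (141 ± 4.13) of the 10 organs, and miR-138 likewise (18.5 ± 3.19 and 56.2 ± 12.5). In the authors' table miR-218 had the same order, and for miR-138 the ischial nerve ranked 7 of the 10.

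**Figure D5:**
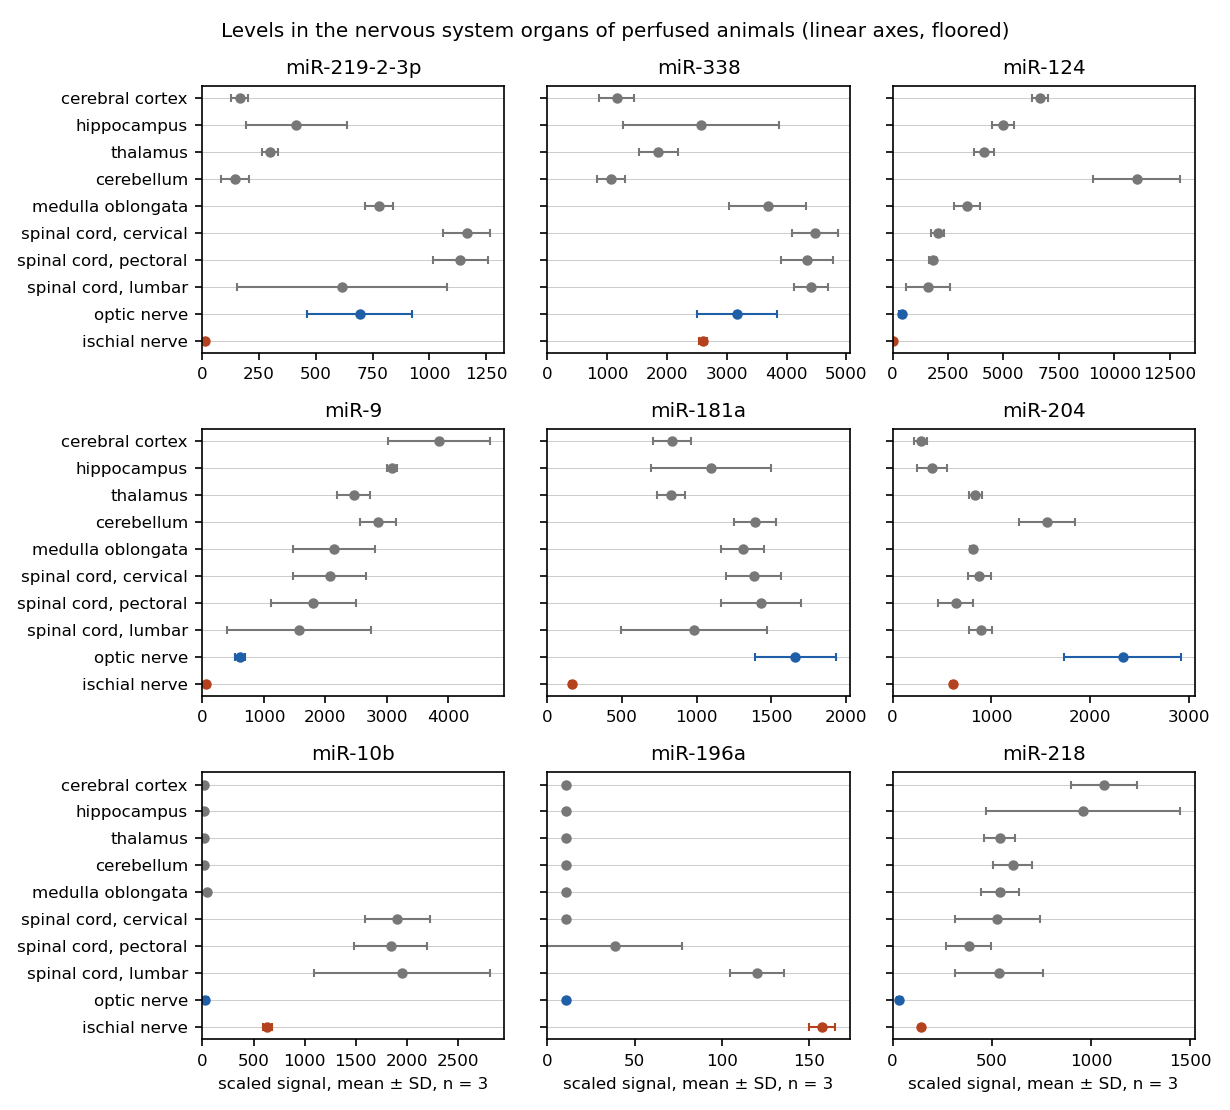
Scaled signal (linear axes, mean ± SD of 3 arrays from perfused animals, floored) of 9 miRNAs in the 10 nervous system organs, with optic nerve in blue and ischial nerve in red. miR-338 is at 3168 and 2601 in the nerves, miR-124 and miR-9 have their lowest means in optic and ischial nerve, and of these organs miR-196a is above the floor only in the pectoral and lumbar spinal cord and the ischial nerve.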

How the data were processed

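RNA (0.1 µg) of each nerve was labelled with Cy3 and hybridised to a 1-colour rat miRNA array. Scanner files with a background-corrected intensity per spot were deposited (Agilent Feature Extraction 10.7.3, per the submitters' processing notes), next to normalized intensities per miRNA that the authors had scaled by a 75th percentile. The normalized table was used as an alternative, and 0 columns of it were left unmatched.

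Without the spots that the scanner software marked as outliers, signals were averaged per probe sequence and then per miRNA. The 75th percentile over 37 miRNAs was set to 2118 on each array, and values were floored at 10.8 before log2. limma 3.58.1 (R 4.3.3) was fitted to the 6 nerve arrays with nerve and animal as terms, two-sided, with Benjamini-Hochberg adjustment over 195 miRNAs and a threshold of 0.05, and was tested on simulated data. Figures were drawn with matplotlib 3.10.9 (Python 3.11.15). The pairing comes from the labels, since both nerves came from the same animals. Deviations of same-animal arrays from their nerve's mean correlated by -0.02, 0.47 and -0.08 in animals 4, 5 and 6 (139 miRNAs).

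The fold given as "at least" takes, for a miRNA detected on 0 arrays of a nerve, the higher of its own signal and the lowest signal well above background on each of those arrays. The miRNAs named first are the 12 largest and 12 smallest log2 differences past the threshold, detected on all 3 arrays of the brighter nerve, with the same sign in 3 animals and no overlap, then miR-219-2-3p and miR-338, and the members of 21 lists (276 miRNAs). The members of the comparison and the lists were chosen with earlier results of these data known. The 6 arrays lay on 5 slides, scanned on 3 days. Animals 5 and 6 were scanned on the same day in both nerves, so that the values without animal 4 are also those within that day. Alternatives changed the scaling, background, spot summary, floor, filter, fit, block and animals. The background alternative was planned on the mean spot signal and run on the median spot signal, the column that the deposited scanner files gave.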

Additional observations from a re-analysis of the deposited data

How the results depend on the processing

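The 24 miRNAs with the largest differences were computed under 20 alternatives. Of 443 values 442 kept their direction and 414 also passed the threshold. Values are absent where a miRNA did not enter a stricter filter. The 24 were chosen for large differences on these same 6 arrays, so that their stability does not extend to the other calls. Against 74 miRNAs higher in optic and 40 in ischial nerve, the fit with no replicate block gave 76 and 42, so the paired design changed neither count by over 1.5 times. The other counts of optic nerve were 36, 45 and 43 under the nerve percentile, the percentile over all miRNAs and quantile normalization, 43 in the authors' table, 48 with a floor 4 times as high, and 139 with normexp background. Those of ischial nerve were 20 with normexp background, 22 with the median over spots, 10 with the higher floor and 16 (of 121 tested) with detection on all 6 arrays. Normexp adds an offset of 50 before scaling, which becomes larger on the dimmer optic nerve arrays by construction. Added after seeing the data, the median over common miRNAs gave 25 and 123, and the 81 miRNAs above the higher floor on all 6 arrays gave 39 and 11. Leaving out an animal gave 25 to 81 in optic and 12 to 53 in ischial nerve. The counts were 81 and 53 without animal 4, 25 and 12 without animal 5, and 32 and 15 without animal 6. Each of these fits had fewer arrays than the main fit, and both counts rose only without animal 4. The slide as a random block was not run, since its correlation could not be estimated from 5 slides of 6 arrays. What caused the other changes was not tested.

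Single miRNAs changed sign as follows. miR-338 had -0.033 and -0.035 under the nerve percentile and the percentile over all miRNAs and -0.77 with the common median. miR-382 had -0.088 and -0.089 under these, -0.83 with the common median, -0.20 in the authors' table, and -3.03e-04 to 0.47 without an animal. With the common median miR-133b had -0.49 and let-7b -0.095. Without an animal miR-1 ranged from -1.86 to 2.43 and miR-133b from -2.26 to 1.89, both negative without animal 4 only. With normexp background miR-299 had 0.083, miR-138 0.10, miR-183 0.31, miR-96 0.25, miR-196c 0.60, miR-145 0.34, miR-126* 0.36, miR-205 0.28, miR-363 0.36 and miR-411 0.40.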

Other observations

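Of the 237 miRNAs detected on a nerve array, 42 were detected on all 3 arrays of neither nerve and entered no comparison. Among them miR-135b, a relative of the called miR-135a, had 16.2, 18.4 and 21.3 in the optic nerves of animals 4, 5 and 6 and 0.795, 0.588 and 1.00 in the ischial nerves. miR-211, a relative of miR-204 known from pigment cells, had 11.8, 13.1 and 18.3 in optic nerve and 2.98, 2.66 and 2.87 in ischial nerve, and was detected on 1 of the 6 arrays. miR-338*, the opposite arm of miR-338, had 10.2, 11.4 and 13.9 against 11.9, 8.89 and 10.9, near the floor in both nerves. miR-7a, known from neuroendocrine cells, had 15.9, 16.6 and 19.2 against 8.53, 8.71 and 11.0. miR-206, miR-31, miR-133a* and miR-200c_v15.0 were, of the 6 arrays, above the floor only on the optic nerve array of animal 4, with 127, 52.8, 55.6 and 27.0.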
